A study of Mus musculus with 9 samples.

Results

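Replication-dependent histone genes encode the core histones H2A, H2B, H3 and H4 and the linker histone H1 that package newly copied DNA. In the gene table of sorted mouse skin keratinocytes they were taken as every gene whose symbol begins Hist1h, Hist2h, Hist3h or Hist4h, which gave 69 of 24532 genes. These were 6 H1, 19 H2A, 19 H2B, 12 H3 and 13 H4 genes. The Hist1 cluster on chromosome 13 held 55 of them, the Hist2 cluster on chromosome 3 held 10, the Hist3 cluster on chromosome 11 held 3, and Hist4h4 on chromosome 6 stood alone. RNA came from C57BL/6 skin at postnatal days 1, 7 and 14, with 3 libraries a day. Library totals were 50670191 to 62970768 counts. The column headers of the youngest group read D0 and were taken as the samples labelled day 1, since days 7 and 14 have headers of their own. Libraries keep the numbers of the headers, which run 1, 2, 3 for day 7 and 4, 5, 6 for the other days. Per the labels' protocols, the cells were sorted from fresh skin as negative for the leukocyte marker CD45.2 and for the dye PI, so the gate removed leukocytes and dead cells but selected no keratinocyte marker. The labels give neither the animals behind each library nor their sex, so the p-values below measure the spread between libraries, which may be technical. The question the comparison of days addresses is how keratinocyte RNA changes over the first 14 days after birth.

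Most mRNAs end in a poly(A) tail. Replication-dependent histone mRNAs instead end just after a short stem-loop, which stem-loop binding protein (SLBP) holds and the U7 ribonucleoprotein uses to place the cut. They are made in S phase, when DNA is copied, and are degraded when replication stops. Some of these genes also give longer, polyadenylated mRNAs in cells that leave the cell cycle, as has been described for several H1 and H2B genes. The libraries were made with a kit for poly(A)-bearing mRNA, so read counts describe mainly such transcripts and whatever stem-loop mRNA was carried along, and a level here is not the full amount of histone mRNA in a cell. In bulk RNA, fewer cells with histone mRNA and less histone mRNA per cell cannot be told apart.

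The stem-loop is shown first because it is what the genes share outside their coding sequence. A stem-loop was searched for in all annotated transcripts of each gene (GENCODE vM21, GRCm38) as GGNNNTNNTNANNNCC, read in the sense of the transcript, with both 6-base arms complementary. It was found in 46 of the 69 genes (66.7%), against 0.495% of the 21810 protein-coding genes outside the family. The capitals below mark the arms of the stem, with the loop and 5 flanking bases on each side in lower case.
Hist1h1c (chr13:23739507-23739532, plus strand): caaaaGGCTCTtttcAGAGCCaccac
Hist3h2a (chr11:58955167-58955192, plus strand): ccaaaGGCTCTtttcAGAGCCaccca
Hist1h2bk (chr13:22036295-22036320, plus strand): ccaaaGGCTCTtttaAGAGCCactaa
Hist1h3g (chr13:23535884-23535909, plus strand): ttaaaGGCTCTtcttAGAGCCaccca
Hist1h4i (chr13:22040961-22040986, minus strand): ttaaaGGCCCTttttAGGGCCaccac
Hist1h4b (chr13:23757361-23757386, plus strand): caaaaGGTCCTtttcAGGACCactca
All 34 stem-loops found in H1, H2A, H2B and H3 genes began GGCT, and the H1 and H2A examples above carry the form seen in 26 of the 46 genes. Of the 12 found in H4 genes, 10 began GGCC and 2 began GGTC, and none began GGCT. The annotated transcript ended within 100 bases of the stem-loop in 23 genes and ran more than 100 bases past it in 23 genes (840 bases past it in Hist1h1c and 1643 in Hist3h2a). No stem-loop was found in the annotated transcripts of the other 23, among them Hist1h2bc, whose annotated transcript has 2 exons. Others of these have short annotated transcripts, such as 393 bases for Hist1h2an, 381 for Hist1h2bl, 411 for Hist1h3h and 312 for Hist1h4k. A stem-loop past the annotated end would be missed, so none found does not mean that the gene lacks one.

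Together the 69 genes took a small and shrinking share of the read counts. Their summed level, in CPM (read counts scaled by edgeR's TMM to the size of the library), was 207, 237 and 243 at day 1, 191, 201 and 214 at day 7, and 113, 117 and 97.9 at day 14. The 3 libraries of day 14 lay below all 6 libraries of the earlier days. The day 1 mean was 229 ± 19.0 CPM, that of day 7 was 202 ± 11.8 and that of day 14 was 109 ± 9.83 (SD, n = 3 each), so 88.2% of the day 1 level was left at day 7 and 47.6% at day 14. Sums over genes carry no test here.

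The sums of all 5 families were lowest at day 14. H3, the core histone with most known tail modifications, averaged 14.5 ± 2.99 CPM over the day 1 libraries, 10.9 ± 1.47 over those of day 7 and 3.79 ± 0.0349 over those of day 14 (SD, n = 3 each), and 26.1% of the day 1 level was left. H2A was at 37.3 ± 4.39, 37.3 ± 2.74 and 16.4 ± 1.79 CPM at days 1, 7 and 14. On average Hist3h2a made up 23.5%, 29.0% and 39.8% of the H2A counts at these days. Hist2h2aa1 and Hist2h2aa2 made up between 18.2% and 22.0% each. The H2A sum is thus mostly a reading of these genes, and the median log2 fold change of the 16 H2A genes tested was −0.53 at day 7 against day 1. H1 was at 87.1 ± 7.31, 75.1 ± 4.09 and 38.6 ± 4.22 CPM, and H4 at 14.1 ± 2.24, 13.4 ± 1.22 and 6.63 ± 1.39 CPM. H2B kept the largest share, with 76.0 ± 5.42, 65.2 ± 3.43 and 43.5 ± 3.37 CPM, or 57.3% of its day 1 level at day 14. Day 1 and day 7 libraries overlapped in the sums of H2A, H3 and H4, and day 14 overlapped neither day in any family.

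**Figure D1:**
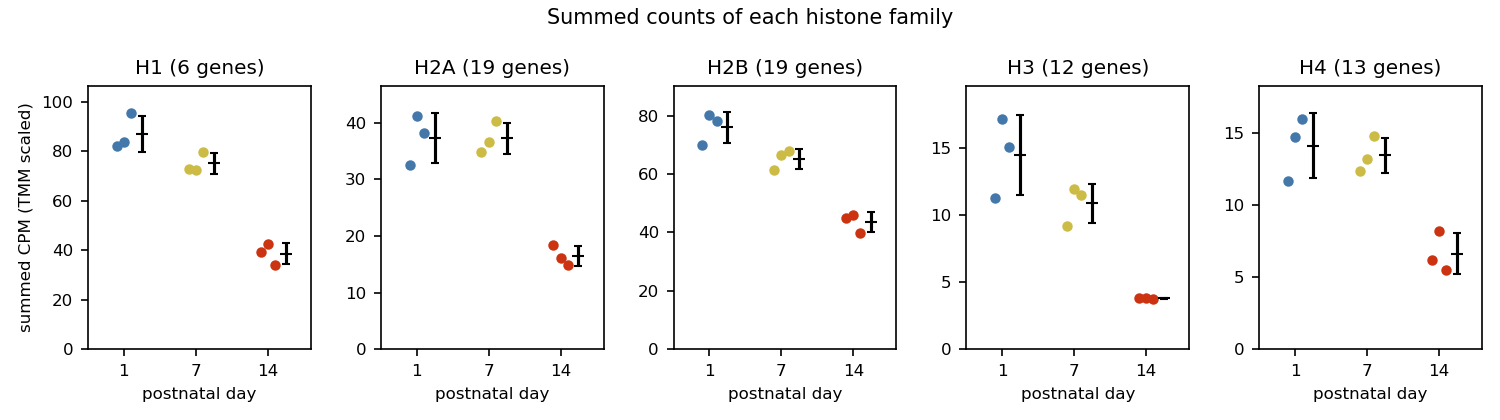
Summed level of each histone family in CPM (TMM scaled, linear axis from 0) against postnatal day. Each point is 1 library and the black bar is the mean ± SD of 3 libraries. The day 14 libraries lie below those of days 1 and 7 in all 5 families, and H3 has the lowest share left (26.1%).

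Each gene was then tested with edgeR's quasi-likelihood F test, with Benjamini-Hochberg adjustment over 14507 genes and a call at an adjusted p under 0.05. Of the 69 histone genes, 62 passed the filter on low counts. A gene could pass through the libraries of 1 day alone, so the counts of calls describe the 62 genes tested and not the whole family. The 7 others are given further below. In 25 of the 69, more than 50% of the 100-base windows of the annotated transcripts also occur in a transcript of another gene. Reads of such copies may be split between genes or counted at several, so their calls may not be separate results.

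At day 14 against day 1, 52 of the 62 genes tested were lower, where 38.4% of all genes tested were. None was higher, where 35.5% of all genes were. No histone gene was higher at an unadjusted p under 0.05 either, nor with DESeq2 or limma-voom. By family, 5 of 5 H1 genes, 15 of 16 H2A, 15 of 17 H2B, 11 of 12 H3 and 6 of 12 H4 genes tested were lower. Of the 52, 50 were more than 2-fold lower, against 14.3% of all genes tested. Over the 3 days together, 50 of the 62 differed, against 82.1% of all genes, which is close to the background. The libraries did not overlap in 54 of the 62 genes with day 14 lower, against 40.5% of all genes. The median log2 fold change of the 62 was −1.99, beside −0.0459 over all genes tested. Without any 1 library, 47 of the 52 calls held. Those of Hist1h2br, Hist1h3d, Hist1h4n, Hist2h2ac and Hist2h2bb did not.

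The larger of the steps in the median was the second. At day 14 against day 7, 50 of the 62 were lower (35.1% of all genes tested) and none was higher (32.5% of all genes tested, and again none at an unadjusted p under 0.05, with DESeq2 or with limma-voom). Of the 50, 44 were more than 2-fold lower, against 7.75% of all genes, and the libraries did not overlap in 51 genes with day 14 lower, against 37.4% of all genes. At day 7 against day 1, 12 were lower, against 24% of all genes tested, and 1 was higher, against 25.5%. Those shares of the histone genes are below the background in both directions. Of the 13 calls, 4 held without any 1 library, and these were Hist1h1a, Hist1h1b, Hist1h2bg and Hist3h2ba. The median log2 fold change was −0.40 in the first step and −1.45 in the second, beside −0.00053 and −0.035 over all genes tested. Fewer calls than the background in the first step thus do not mean a smaller change in the median. A direct test of the second step minus the first, added after both steps had been seen, was lower for 22 of the 62 genes, where 27.6% of all genes tested were, and higher for none, against 24.2%. For 40 of the 62, then, the unequal steps did not pass a test of their own.

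**Figure D2:**
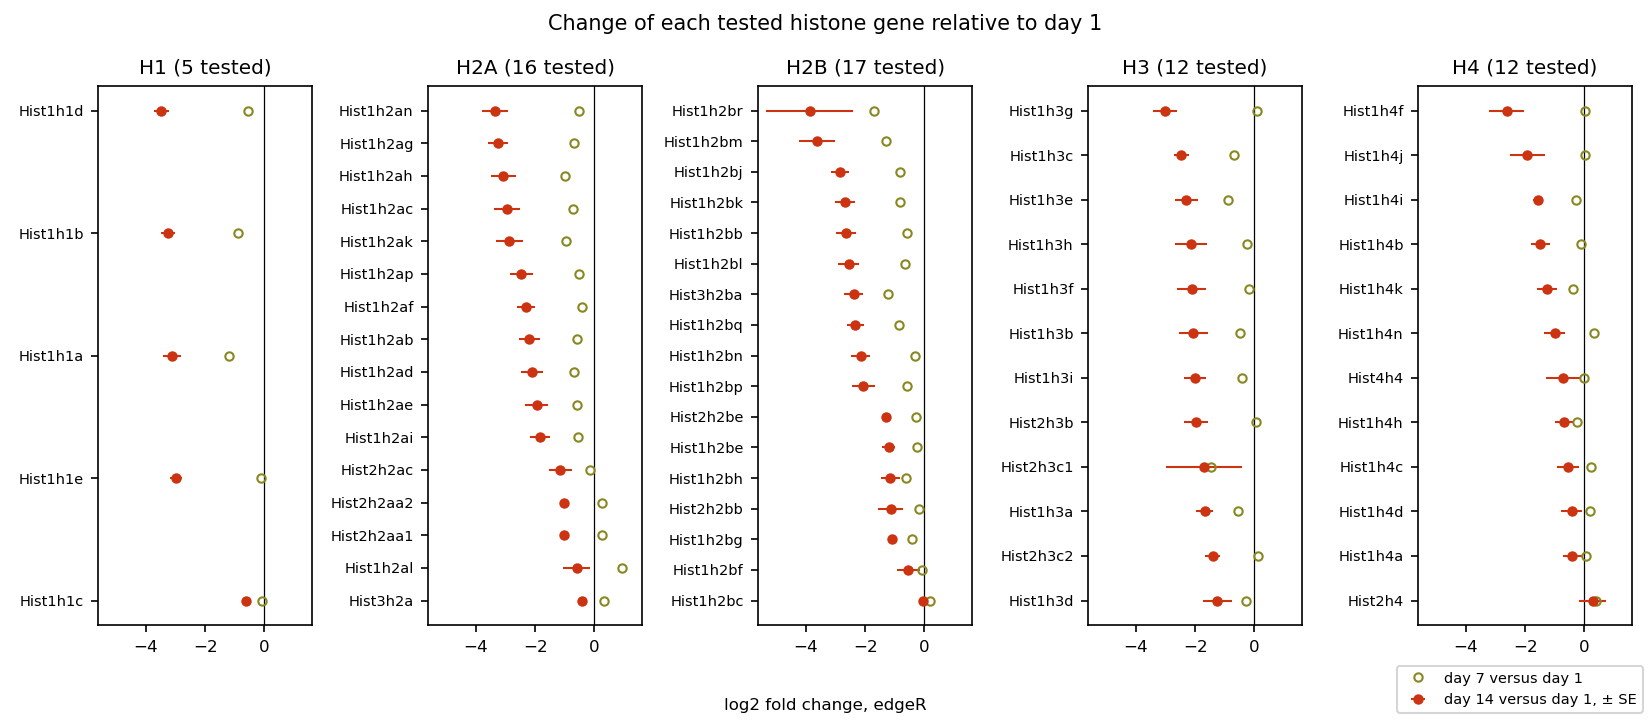
Log2 fold change of the 62 tested genes relative to day 1 (horizontal axis), 1 row a gene, in 5 family panels. Open circles are day 7 and filled circles day 14 with the standard error as a bar. Day 14 values lie left of 0 for 61 genes, with Hist2h4 the exception, and day 7 values lie closer to 0 for most.

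Linker histone H1 sits on the DNA between nucleosomes and compacts the fibre, and a cell mixes several subtypes. Of the 5 H1 genes tested, all were lower at day 14, Hist1h1c by the least. Hist1h1c was at 55.7, 45.5 and 59.9 CPM at day 1, 49.2, 47.7 and 56.8 at day 7, and 36.0, 37.9 and 31.4 at day 14. Its day 14 libraries lay below all the others, and days 1 and 7 overlapped. Its log2 fold change at day 14 against day 1 was −0.61 ± 0.11 (SE, adjusted p = 0.00074, edgeR).

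Hist1h1d was at 9.16, 15.7 and 16.2 CPM at day 1, 9.17, 10.4 and 8.55 at day 7, and 1.10, 1.57 and 1.01 at day 14. The last of these rest on 55, 83 and 51 reads. No day 14 library came near those of the earlier days, and the log2 fold change against day 1 was −3.47 ± 0.25 (SE, adjusted p = 7.9e-07, edgeR). At day 7 against day 1 Hist1h1d did not pass the main test. It was lower with DESeq2 (log2 −0.56, adjusted p = 0.0176). It also passed in edgeR with library totals alone (−0.643, adjusted p = 0.0297) and without library 4 of day 1 (−0.768, adjusted p = 0.00109). Hist1h1e was at 10.2, 11.8 and 9.75 CPM at day 1, 9.76, 9.56 and 9.85 at day 7, and 1.46, 1.72 and 0.816 at day 14. At day 7 against day 1 it did not pass the test (log2 −0.12 ± 0.17, adjusted p = 0.59), and it fell at day 14 (log2 −2.86 ± 0.20 against day 7, adjusted p = 1.3e-07). In the annotation, 24.7% of the 100-base windows of Hist1h1e are shared with another transcript, chiefly that of the neighbouring Hist1h2be, so part of its reads may belong to that gene.

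Hist1h1b and Hist1h1a were already lower in the first step. Hist1h1b was at 5.09, 8.38 and 7.52 CPM at day 1, 4.01, 3.77 and 3.50 at day 7, and 0.519, 0.999 and 0.677 at day 14. Hist1h1a was at 1.94, 2.24 and 2.12 CPM at day 1, 0.695, 1.03 and 1.02 at day 7, and 0.220, 0.302 and 0.199 at day 14. In both genes no 2 days overlapped. At day 7 against day 1 the log2 fold change was −0.89 ± 0.21 for Hist1h1b (SE, adjusted p = 0.0041) and −1.20 ± 0.26 for Hist1h1a (adjusted p = 0.0024).

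These unequal changes altered the makeup of the H1 counts. Hist1h1c made up 61.7% ± 6.79 of them at day 1, 68.1% ± 2.77 at day 7 and 90.9% ± 1.61 at day 14 (SD, n = 3 each). Hist1h1d made up 15.6% ± 3.99, 12.5% ± 1.79 and 3.15% ± 0.469 at the same days. The H1 sum is for this reason mostly a reading of Hist1h1c: without it, the log2 ratio of the summed H1 level at day 14 over day 1 was −3.23, in place of −1.17. Hist1h1t, the testis H1, had between 0 and 8 reads in a library and was not tested.

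**Figure D3:**
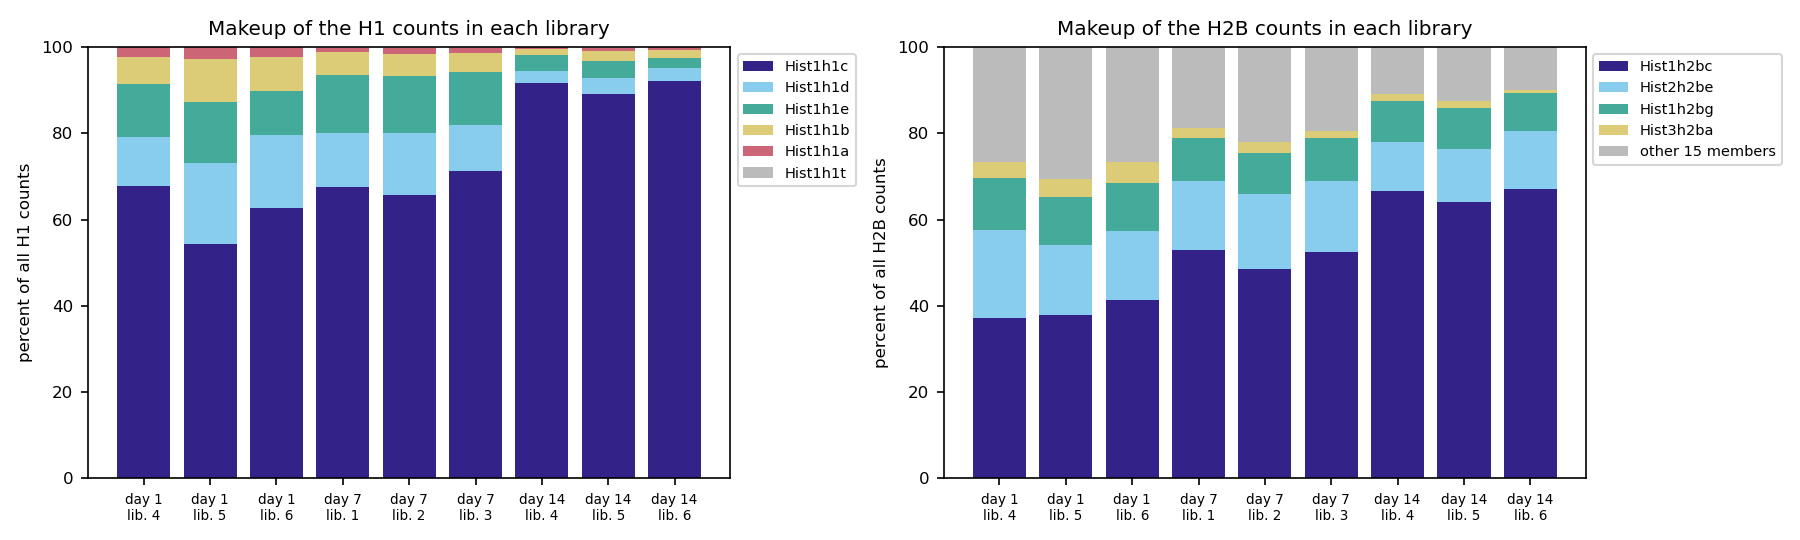
Share of the H1 counts (left) and H2B counts (right) held by each named gene in each of the 9 libraries, in percent. Bars run from day 1 to day 14, and Hist1h1c and Hist1h2bc, at the base, take 90.9% and 65.9% on average at day 14.

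H2B pairs with H2A in the nucleosome, and its family held the gene that changed least among those with many counts. Hist1h2bc was at 25.9, 30.4 and 32.3 CPM at day 1, 32.5, 32.2 and 35.6 at day 7, and 30.0, 29.4 and 26.7 at day 14. Days 1 and 14 overlapped, with a log2 fold change of −0.04 ± 0.08 (SE, adjusted p = 0.65, edgeR). With library totals alone as the scaling, which moved the median of all genes to −0.32, its value was −0.32 and passed the test (adjusted p = 0.0035). At day 14 against day 7 it was lower by the test (log2 −0.22 ± 0.08, adjusted p = 0.031), but not with RLE size factors, with DESeq2, or without library 3 of day 7 (adjusted p = 0.098) or library 6 of day 14 (adjusted p = 0.10). Hist1h2bc made up 38.8% ± 2.26 of the H2B counts at day 1, 51.3% ± 2.44 at day 7 and 65.9% ± 1.68 at day 14 (SD, n = 3 each). In the annotation, 25.4% of its windows and 44.9% of those of Hist1h2bg are shared with other transcripts, chiefly of each other.

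Hist2h2be and Hist1h2bg fell by moderate amounts. Hist2h2be was at 14.3, 12.9 and 12.5 CPM at day 1, 9.82, 11.5 and 11.3 at day 7, and 5.13, 5.69 and 5.35 at day 14, with no overlap between days. Its log2 fold change at day 14 against day 1 was −1.29 ± 0.09 (SE, adjusted p = 8.8e-08). Hist1h2bg was at 8.37, 8.93 and 8.66 CPM at day 1, 6.16, 6.38 and 6.75 at day 7, and 4.19, 4.36 and 3.46 at day 14, again with no overlap, and its log2 fold change was −1.11 ± 0.11 (adjusted p = 1.6e-06). Hist3h2ba, at 2.71, 3.33 and 3.81 CPM at day 1, had 1.44, 1.61 and 1.18 at day 7 and 0.819, 0.754 and 0.299 at day 14. It had the lowest log2 fold change among genes called at day 7 and at or above 1 CPM, −1.21 ± 0.29 (adjusted p = 0.0045). Hist1h2bb fell by 2.64 ± 0.34 on the log2 scale at day 14 against day 1, and by 2.07 ± 0.34 against day 7.

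The lowest fitted values in the family belong to genes with few or no reads in libraries of day 14. Hist1h2bm had 56, 88 and 46 reads at day 1, 26, 26 and 20 at day 7, and 2, 1 and 9 at day 14. Its log2 fold change at day 14 against day 1 was −3.63 ± 0.60 (adjusted p = 0.00014), and −5.00 without library 6 of day 14. Hist1h2br had 174, 173 and 90 reads at day 1, 48, 79 and 0 at day 7, and 0, 24 and 0 at day 14. Its near-identical copy Hist1h2bq had 198, 158 and 127, 69, 105 and 68, and 24, 36 and 17 reads at those days, without such gaps. Hist1h2br passed the test at day 14 against day 1 with an adjusted p of 0.047, which did not hold with DESeq2 (0.11). Without library 5 of day 14 the other libraries of that day are at 0 reads, so no fold is given for it. The summed level of both copies was 5.50, 5.33 and 3.53 CPM at day 1, 1.85, 3.0 and 1.32 at day 7, and 0.479, 1.13 and 0.338 at day 14.

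H2A forms a dimer with H2B, and the H2A gene with the most counts lies outside the Hist1 cluster. Hist3h2a was at 8.22, 9.41 and 8.53 CPM at day 1, 10.4, 10.3 and 11.8 at day 7, and 7.43, 6.09 and 6.11 at day 14. No 2 days overlapped: day 7 was highest and day 14 lowest. It was the 1 histone gene called higher at day 7 against day 1 (log2 0.31 ± 0.10, adjusted p = 0.026). That call was lost with library totals alone (adjusted p = 0.11) and without library 4 or 6 of day 1 or library 3 of day 7 (adjusted p = 0.084, 0.072 and 0.11). At day 14 it fell by 0.41 ± 0.11 on the log2 scale against day 1 (adjusted p = 0.0037). It overlaps Trim17 on the same strand in the annotation, and 29.8% of its windows are shared with it or other transcripts. The pseudogene Hist1h2al had a larger log2 value at day 7 against day 1, 0.93, which did not pass the test. Its reads were 14, 15 and 20 at day 1 and 34, 30 and 23 at day 7. With limma-voom Hist1h2al passed (log2 0.944, adjusted p = 0.0438).

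The pair Hist2h2aa1 and Hist2h2aa2 is near-identical. Their read counts differed by at most 7 in any library. Whether each read was counted at both genes or divided between them is not given in the sources used here, so the summed level of the pair may count each read at both. Each fell by 1.01 on the log2 scale at day 14 against day 1 (SE 0.15 and 0.16, adjusted p = 7.2e-05 and 7.9e-05). Among the Hist1 H2A genes, the log2 fold change at day 14 against day 1 was −3.35 ± 0.42 for Hist1h2an, −3.26 ± 0.34 for Hist1h2ag and −2.47 ± 0.38 for Hist1h2ap (all called). Their day 14 levels were between 0.0999 and 0.415 CPM. Of their windows, 83.3%, 76.2% and 92.2%, in that order, are shared with other transcripts, so these folds may not be of single genes. All 19 H2A genes overlap a predicted gene on the opposite strand, and since the strand setting of the counting is not given, reads of the overlaps cannot be told apart.

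In the mouse genome many H2A and H2B genes lie back to back and share the stretch between their starts. There were 13 such pairs with starts at most 400 bases apart, and 10 had both genes tested. In 8 of these 10 both genes were lower at day 14 against day 1. Taken singly, 52 of the 62 histone genes tested and 38.4% of all genes tested were lower. Whether the 2 genes of a pair changed together was not tested. The clearest exception was Hist1h2ac and Hist1h2bc, whose starts lie 240 bases apart on chromosome 13. Hist1h2ac was at 0.814, 1.37 and 0.732 CPM at day 1, 0.568, 0.718 and 0.484 at day 7, and 0.140, 0.151 and 0.0796 at day 14. These are 55, 85 and 45, then 36, 44 and 25, then 7, 8 and 4 reads. Day 14 did not overlap the earlier days, and the log2 fold change against day 1 was −2.95 ± 0.44 (SE, adjusted p = 5.8e-05), against −0.04 for Hist1h2bc. The other exception, Hist1h2ad and Hist1h2bf, had log2 values of −2.1 and −0.54, and the second did not pass the test (adjusted p = 0.24).

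The stretch from which Hist1h2ac and Hist1h2bc start is shown because both genes share it and yet differ in level and change. It is read in the direction of Hist1h2ac, 250 bases before to 50 after its start (RefSeq, GRCm38.p6, chr13:23683910-23684209, minus strand). The capitals mark 1 octamer (ATTTGCAT, here as its complement) and 3 CCAAT boxes on either strand.
Hist1h2ac: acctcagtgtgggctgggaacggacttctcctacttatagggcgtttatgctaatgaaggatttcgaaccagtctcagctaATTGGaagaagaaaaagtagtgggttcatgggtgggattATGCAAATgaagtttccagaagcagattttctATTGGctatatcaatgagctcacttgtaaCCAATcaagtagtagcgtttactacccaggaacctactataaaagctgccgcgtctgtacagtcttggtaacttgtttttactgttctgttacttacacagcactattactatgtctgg
The promoter of Hist1h1c (chr13:23738557-23738856, plus strand) is shown as that of the gene with the most counts. The capitals mark 1 H1 box (AAACACA) and 1 CCAAT box.
Hist1h1c: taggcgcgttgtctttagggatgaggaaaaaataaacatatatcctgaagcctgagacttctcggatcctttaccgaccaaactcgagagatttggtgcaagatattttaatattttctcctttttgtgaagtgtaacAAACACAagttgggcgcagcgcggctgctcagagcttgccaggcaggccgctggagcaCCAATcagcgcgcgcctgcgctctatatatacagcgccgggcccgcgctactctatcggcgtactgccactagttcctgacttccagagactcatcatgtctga
RefSeq promoters of this length were at hand for 62 of the 69 genes. The octamer, searched on both strands, was in 7 of 18 H2A and 7 of 16 H2B promoters and in none of H1, H3 or H4, against 1.97% of all 27025 promoters. The H1 box was in 5 of 6 H1 promoters (8.22% of all). A CCAAT box was in all H1, H2A, H2B and H3 promoters and in 3 of 12 H4 promoters (41.1% of all), and TATAAA was in 56.5% of the histone promoters (15.7% of all). A match describes letters in the window and not a bound site.

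**Figure D4:**
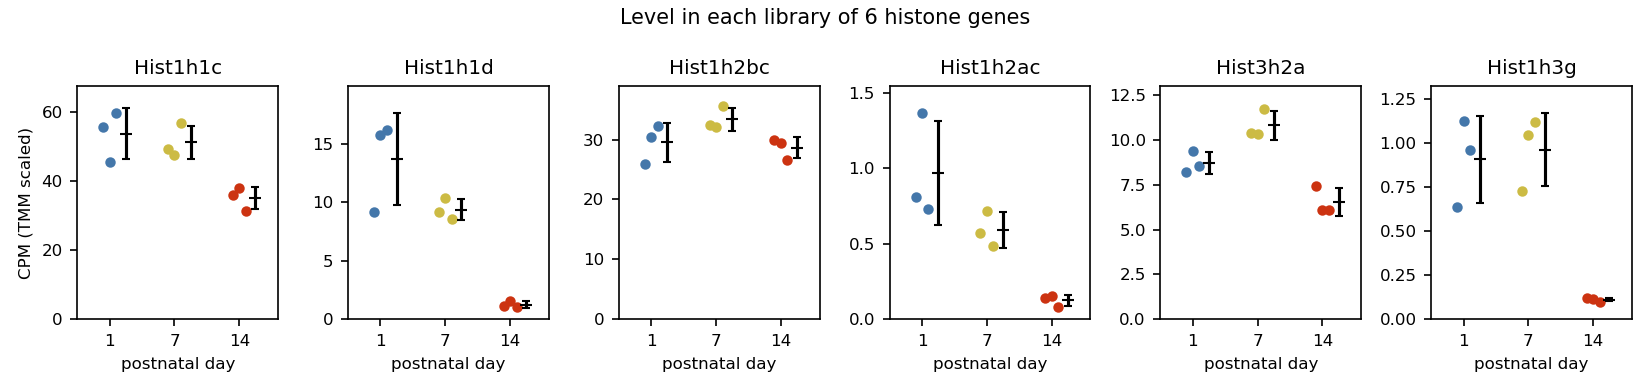
Level in each library of 6 genes in CPM (TMM scaled, each axis linear from 0) against postnatal day, with the mean ± SD of 3 libraries in black. Hist1h1c and Hist1h2bc stay above 25 CPM at all 3 days, while Hist1h1d, Hist1h2ac and Hist1h3g drop at day 14 to a small part of their earlier level.

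The H3 genes of these clusters encode the forms laid down during DNA replication. All of their log2 fold changes at day 14 against day 1 were below 0, between −3.01 and −1.25, and Hist2h3c1 alone did not pass the test. Hist1h3g was at 0.636, 1.13 and 0.960 CPM at day 1, 0.726, 1.04 and 1.12 at day 7, and 0.120, 0.113 and 0.0995 at day 14. Days 1 and 7 overlapped and day 14 lay far below, with 5 or 6 reads a library. It had a log2 fold change of −3.09 ± 0.41 at day 14 against day 7 (adjusted p = 2.7e-05) and of 0.09 ± 0.33 at day 7 against day 1 (adjusted p = 0.85), and the steps differed in the added test (adjusted p = 0.00094).

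Hist1h3a was at 1.82, 3.27 and 2.44 CPM at day 1, 1.63, 1.73 and 1.74 at day 7, and 0.919, 0.924 and 0.498 at day 14, with a log2 fold change of −1.68 ± 0.29 at day 14 against day 1 (adjusted p = 0.00017). Hist1h3c was at 1.85, 2.24 and 2.23 CPM at day 1, 1.17, 1.57 and 1.22 at day 7, and 0.340, 0.377 and 0.418 at day 14, with no overlap between days and a log2 fold change of −2.47 ± 0.25 (adjusted p = 1.9e-06). Hist1h3e fell by 2.29 ± 0.38 and Hist2h3c2 by 1.41 ± 0.27 on the log2 scale. Hist2h3c1 had 59, 68 and 67 reads at day 1, 1, 64 and 1 at day 7, and 1, 21 and 26 at day 14, and all of its 100-base windows are shared with another transcript. Its log2 fold change at day 14 against day 1 was −1.70 ± 1.27 and did not pass the test (adjusted p = 0.26). It passed with limma-voom (adjusted p = 0.0455), with the libraries of these 2 days alone (0.0379), without library 2 of day 7 (0.0311), and summed with its copy Hist2h3c2 (log2 −1.53, 0.00049). Its sign at day 14 against day 7 also changed without library 2 of day 7 (log2 3.99, adjusted p = 0.012, in place of −0.22 and 0.89).

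H4 forms the core tetramer with H3. Its genes changed least as a family in the median, with a log2 fold change of −0.86 at day 14 against day 1, and 6 of the 12 tested did not pass the test. Those 6 had between 7 and 84 reads a library and standard errors from 0.32 to 0.57. Hist1h4i, with the most counts, was at 4.10, 5.15 and 5.60 CPM at day 1, 3.47, 3.98 and 4.66 at day 7, and 1.78, 1.77 and 1.45 at day 14. Days 1 and 7 overlapped and day 14 lay below both, with a log2 fold change of −1.57 ± 0.18 against day 1 (adjusted p = 4.6e-06). Hist1h4n was at 1.27, 1.98 and 2.15, then 1.80, 2.22 and 2.71, then 0.839, 1.38 and 0.458 CPM at days 1, 7 and 14. Its call against day 1 (log2 −1.01 ± 0.35, adjusted p = 0.022) was lost without library 5 or 6 of day 1 or library 4 or 6 of day 14 (adjusted p between 0.059 and 0.071). Of the windows of Hist1h4n, 80.7% are shared with other transcripts, chiefly Hist1h4m.

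Among the genes not called, Hist1h4h had a log2 value of −0.68 ± 0.33 and Hist1h4c of −0.55 ± 0.38 at day 14 against day 1. Hist1h4h passed the test with library totals alone (log2 −0.95, adjusted p = 0.0199) and without library 5 of day 14 (log2 −0.99, adjusted p = 0.0259). Hist4h4, at 0.178, 0.547 and 0.635 CPM at day 1, 0.284, 0.457 and 0.600 at day 7, and 0.379, 0.302 and 0.139 at day 14, overlapped between all days (log2 −0.72 ± 0.57, adjusted p = 0.27). Hist2h4 was the 1 tested gene with a value above 0, at 0.28 ± 0.45 (adjusted p = 0.59), with 17, 15 and 21 reads at day 1, 17, 27 and 20 at day 7, and 15, 25 and 12 at day 14.

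By cluster, 43 of 50 tested Hist1 genes, 7 of 9 Hist2 genes and 2 of 2 Hist3 genes were lower at day 14 against day 1, beside 38.4% of all genes tested, which is also the background of the counts by stretch and 3′ end that follow. The median log2 fold changes were −2.13 for Hist1, −1.15 for Hist2 and −1.40 for Hist3, and the value of Hist4h4 was −0.72. The Hist1 genes lie in 2 stretches of chromosome 13, apart from the pseudogene Hist1h2al. In the stretch from 21715711 to 22043658, 21 of 21 tested genes were lower, with a median of −2.47. In the stretch from 23531044 to 23934913, which holds the H1 genes other than Hist1h1b, and Hist1h2bc and Hist1h2ac, 22 of 28 were lower, with a median of −2.0. By annotated 3′ end, 19 of 21 tested genes ending near the stem-loop were lower (median −2.1), 16 of 22 that run past it (median −1.33) and 17 of 19 with none found (median −2.15). All 3 groups reach down to −3.47 or below, and the groups differ in family makeup, so the medians are descriptions. The group with none found also holds genes whose short annotated transcripts could miss a stem-loop.

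Hist1h1c and Hist1h2bc together held 36.5% ± 3.88 of all histone counts at day 1, 41.9% ± 1.84 at day 7 and 58.5% ± 0.802 at day 14. The other 67 genes summed to 146 ± 18.1 CPM in the day 1 libraries, 117 ± 7.09 in those of day 7 and 45.3 ± 4.88 in those of day 14. For them 31.1% of the day 1 level was left, against 47.6% with all genes. At day 1, 41 of the tested genes averaged at least 1 CPM, and at day 14, 10 did.

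**Figure D5:**
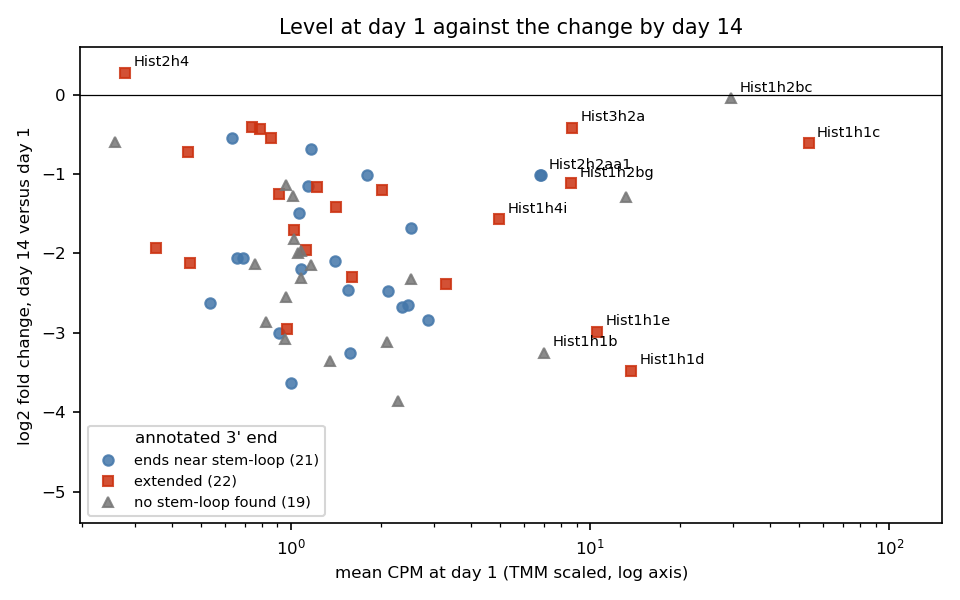
Log2 fold change at day 14 against day 1 (vertical axis) against the mean level at day 1 in CPM (TMM scaled, not adjusted for length, log axis) for the 62 tested genes, by annotated 3′ end. Hist1h1c, Hist1h2bc and Hist3h2a lie at the upper right (high counts, changes between −0.61 and −0.04), and Hist1h1d and Hist1h1e lie at the lower right.

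Of the 7 genes that did not pass the filter, Hist1h2aa, a testis H2A, had 0 reads in all 9 libraries, and 3 reads a library, the limit that a count of 0 allows, would be 0.0444 to 0.0599 CPM. Its back-to-back neighbour Hist1h2ba, the testis H2B, had 2 to 5 reads a library. Hist1h1t was described above. Hist3h2bb-ps, a pseudogene, had 0 to 13 reads and Hist1h4m 1 to 9. Hist2h2ab had 23, 2 and 3 reads at day 1, 10, 12 and 7 at day 7, and 5, 4 and 8 at day 14. Hist1h2ao, which shares 92.7% of its windows with other transcripts, chiefly Hist1h2ap, had 92, 4 and 4 reads at day 1, 2, 3 and 2 at day 7, and 10, 1 and 1 at day 14. The limit given for Hist1h2aa covers counting error only.

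Genes that act with the histone genes were set beside them. Their counts, and those of the cell type markers, stand against 38.4% of all genes tested lower and 35.5% higher at day 14 against day 1. The S phase and replication list fell at day 14 against day 1 in 28 of 30 genes and rose in 1, with a median log2 fold change of −0.91. Mcm4 and Mcm6, parts of the replicative helicase, fell by 1.12 ± 0.06 and 0.87 ± 0.06 on the log2 scale, and Rrm1, which makes deoxynucleotides, by 0.67 ± 0.06. Pcna, the sliding clamp of replication, was the 1 that rose (log2 0.14 ± 0.06, adjusted p = 0.046). Mki67, which cells carry while they cycle, was at 420, 461 and 430 CPM at day 1, 449, 463 and 435 at day 7, and 239, 239 and 253 at day 14, so days 1 and 7 overlapped and day 14 lay below both. Its log2 fold change at day 14 against day 1 was −0.84 ± 0.05 (adjusted p = 9.0e-09).

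The factors that transcribe histone genes and form their mRNA 3′ ends fell in 11 of 15 genes at day 14 against day 1, with a median of −0.46, and none rose. Cstf2, a subunit of the cleavage complex, fell by 0.66 ± 0.05, Ncbp1 of the cap-binding complex by 0.48 ± 0.04, Sympk, a scaffold of the cleavage complex, by 0.35 ± 0.07 and Srrt, which links the cap to 3′ end processing, by 0.22 ± 0.05 on the log2 scale. Slbp, which encodes the stem-loop binding protein, was at 77.5, 71.9 and 70.3 CPM at day 1, 81.9, 82.8 and 48.7 at day 7, and 104, 92.6 and 96.7 at day 14. Day 14 lay above both other days, but its log2 fold change against day 1 was 0.42 ± 0.19 and did not pass the test (adjusted p = 0.089). Npat, the transcriptional coactivator of histone genes, was at 0.02 ± 0.05 at day 14 against day 1 (adjusted p = 0.69). Of 7 genes of histone mRNA decay 2 fell and 1 rose, both below the background: Eri1, a nuclease that acts at the stem-loop, and Dis3l2 fell by 0.31 ± 0.06 and 0.34 ± 0.06, and Zcchc6, a terminal uridylyltransferase, rose by 0.54 ± 0.04.

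The replacement histones, many of which are also made outside S phase from polyadenylated mRNA, fell in 6 of 11 genes and rose in 2 at day 14 against day 1. H1f0, the linker histone of resting and differentiating cells, fell by 1.28 ± 0.05 on the log2 scale (424, 461 and 456 CPM at day 1, 361, 380 and 374 at day 7, and 191, 177 and 183 at day 14). H2afx, whose H2A is phosphorylated at DNA breaks, fell by 1.19 ± 0.09 and H2afy, which encodes macroH2A, by 0.70 ± 0.16. H3f3a, a gene for the replacement form of H3, rose by 0.34 ± 0.06, while H3f3b was at 0.12 ± 0.08 and H2afz at 0.01 ± 0.05, and neither passed the test (adjusted p = 0.18 and 0.83). Of 16 histone chaperones, 12 fell and 3 rose. Ssrp1 of the FACT complex fell by 0.71 ± 0.04, Rbbp4 by 0.62 ± 0.05, Npm1 by 0.34 ± 0.04 and Rbbp7 by 0.11 ± 0.04.

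Several other features of the libraries moved with the days. Keratinocyte markers (Krt5, Krt14, Krt1, Krt10 and Trp63) summed to 43610 to 49880 CPM at day 1, 44250 to 46850 at day 7 and 33360 to 34880 at day 14 (3 of 5 fell and 1 rose at day 14 against day 1), so all 9 libraries carried them at high levels. Melanocyte markers fell in 5 of 5 genes at day 14 against day 1. Their sums were 327 to 359 CPM at day 1, 95.4 to 118 at day 7 and 14.9 to 18.5 at day 14. Fibroblast markers summed to 122 to 225, 17.2 to 61.6 and 16.8 to 37.2 CPM at the 3 days, and 2 of 6 fell, which is below the background. Leukocyte markers rose in 5 of 5 tested but stayed at 15.2 to 16.5 CPM at day 14, with Ptprc, which encodes CD45, at most 0.180 CPM. Erythroid markers were highest at day 7 (11.7 to 41.5 CPM) and endothelial markers at most 1.45 CPM. Their part in the histone results was not tested. Xist was at 1553, 861 and 1642 CPM at day 1, listed at 0 at day 7 and at 2328 to 2682 at day 14, with the Y-linked Ddx3y at 29.0 to 55.6, 101 to 112 and 0 CPM, so the sex makeup of the libraries differed between days and cannot be told apart from age here. The library names of day 7 are also of another style than those of days 1 and 14, and any difference in handling behind that cannot be told apart from age either.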

How the data were processed

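Poly(A) mRNA libraries (TruSeq Stranded mRNA, per the labels' protocols) of sorted skin keratinocytes at days 1, 7 and 14, 3 each, were analysed from 1 gene table. The authors deposited read counts per gene and library, used here as given. Per the submitters' processing notes, the tools were HISAT2 2.1.0 and StringTie 1.3.4d, after bcl2fastq 2.20.0 and Trimmomatic, on mm10. How reads were counted, on which strand and with which annotation is not given in the sources used here. The 18 other per-library columns (FPKM and TPM) were not used. Counts were scaled with TMM, filtered with filterByExpr and tested with edgeR 4.0.16 (robust quasi-likelihood F test, 1 model over 9 libraries), with Benjamini-Hochberg adjustment over 14507 genes. CPM are TMM scaled. They are not adjusted for length, so levels of different genes are not compared per molecule.

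Alternatives were RLE factors, library totals alone, other filters, DESeq2, limma-voom, fits of 2 days, a block on library numbers, and leaving out each library. Summed copies, a test against a fold of 1.5, and sums without Hist2h2aa2 and Hist2h3c1 were chosen after seeing the data. So was the direct test of the second step minus the first. The histone genes and lists were chosen with earlier results of these data known. Named genes were the 4 of highest mean level in each family, the 4 called genes with the largest log2 fold change for each pair of days and direction with at least 1 CPM in the higher day, all H1 and Hist3 genes, the testis forms, Hist4h4, and the 4 called genes of highest mean level in each context list with 8 more in any case. Others, among them Hist1h2ac, Hist1h3g, Hist1h2bm, Hist2h3c1 and Hist2h4, were named after their values were seen. The fit was tested on simulated data. Sequences came from RefSeq (GRCm38.p6) and GENCODE vM21.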

Additional observations from a re-analysis of the deposited data

How the results depend on the processing

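Over the other scalings, filters, tools and the test against a fold of 1.5, the number of histone genes lower at day 14 was 36 to 54 against day 1 and 34 to 53 against day 7, and 34 to 53 differed over the 3 days. The lowest of each came with a minimum of 1 CPM in 3 libraries, under which fewer histone genes were tested. Leaving out 1 library gave 49 to 52, 47 to 51 and 48 to 52. At day 7 against day 1 the counts were less stable. The 1 gene higher became 0 with library totals alone, 2 with limma-voom and 0 in the test against a fold of 1.5, and 0 to 1 without 1 library. The 12 lower became 1 in the test against a fold of 1.5 and 4 to 13 without 1 library. At day 14 against day 7, 0 to 1 gene was higher without 1 library, the 1 being Hist2h3c1 without library 2 of day 7, whose log2 value was −0.80 to 3.99 without 1 library. The causes were not tested.

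With the replicate block on library numbers, possible at days 1 and 14 alone, 51 histone genes were lower and 0 higher: Hist2h3c1 gained a call (adjusted p = 0.027), and Hist2h2ac (0.0538) and Hist1h3d (0.0585) lost theirs. Same-numbered libraries correlated at 0.0141, 0.0102 and 0.104 in their deviations, and differently numbered ones at −0.0654 to 0.0491. The highest value belonged to the libraries numbered 6, but all values were low, and the numbers were not taken as pairs.

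Without the gene with most counts, the log2 ratios of sums at day 7 over day 1, day 14 over day 7 and day 14 over day 1 were −0.48, −2.75 and −3.23 for H1 and −0.55, −1.10 and −1.64 for H2B. For H2A they were −1.42 at day 14 over day 7 and −1.53 over day 1. With library totals alone, the ratios at day 14 over day 1 were −1.44 for H1, −1.46 for H2A, −1.08 for H2B, −1.35 for Hist1, −1.44 for Hist2, −1.03 for Hist3 and −1.34 for all histone genes. At day 14 over day 7 they were −0.76 for H2B, −1.02 for Hist1 and −1.06 for all histone genes. The median over all genes tested was then −0.319 at day 14 against day 1. Of 3335 values of single histone genes under alternatives, 1 reversed, 110 lost a call and 38 gained one. Genes averaging under 1 CPM at day 14, which were 3 of the 6 H1 genes, all H3 genes and most H2A, H2B and H4 genes, rest on few reads.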
